A study of Homo sapiens
Mus musculus with 17 samples.

Results

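The genes described here are 35 mouse genes that interferons induce, measured in the host reads of human bladder cancer xenografts. They were taken as a list of gene symbols, and all 35 were rows of the mouse table of 23337 genes. Their means over the 17 libraries were all at least 10 normalized counts, the minimum for testing, which 11831 mouse genes met. By role the list held 4 transcription factors, 4 nucleic acid sensors, 3 genes of the ISG15 system, 11 antiviral effectors, 2 guanylate-binding proteins, 2 chemokines, 3 antigen processing genes, 2 ADP-ribosyltransferases and 4 other induced genes.

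Interferons are secreted proteins that cells release when they sense foreign or misplaced nucleic acid, or that lymphocytes release on activation. Type I interferons act through a receptor whose Janus kinases phosphorylate STAT2, which enters a complex with IRF9 that binds interferon-stimulated response elements, whereas interferon gamma acts through its own receptor and at gamma-activated sites. In tumours, macrophages, endothelium and fibroblasts all carry these receptors, and Cxcl9, Gbp2 and the immunoproteasome genes are known as targets of interferon gamma, which natural killer cells and T cells secrete.

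VM-CUB-1 cells, an established line of human bladder cancer that the series calls resistant to nintedanib, formed the tumours in Hsd:Athymic Nude-Foxn1nu mice, which lack a thymus and so most T cells. All groups were dosed for 7 days. Alpelisib (BYL719) blocks the alpha catalytic subunit of phosphoinositide 3-kinase, and nintedanib blocks receptor tyrosine kinases, among them those for VEGF, FGF and PDGF. The study asked how the drugs work together, and reads were assigned to the human tumour or to the mouse host by separate mapping. The combination group received alpelisib at 25 mg/kg and nintedanib at 40 mg/kg (n = 4 libraries). The alpelisib group received 25 mg/kg of that drug (n = 4), and the nintedanib group 40 mg/kg of the other (n = 5). The vehicle group received 0.5% methylcellulose and 0.1% Tween80 (n = 4). Titles divide the nintedanib libraries into 3 responders and 2 non-responders, while the series text gives these numbers the other way round, and the titles were followed. Whether each tumour had its own mouse is not in the labels, and the p-values therefore measure only the spread between these samples, which may be technical. All tumours came from 1 cell line.

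Mouse reads per library ranged from 2271764 to 7438823. Rn45s and Lars2, rows known to collect ribosomal RNA, took 1.73% to 72.9% of them, and left 1376733 reads in Vehicle 3, the fewest, and 6383541 in Vehicle 4, the most. These rows took over 40% of mouse reads in 4 libraries, Combination 1, Combination 4, Alpelisib 3 and Vehicle 3. Vehicle 3 held the highest value of 8 members and the lowest value of 9, and over all genes tested it held the highest value of 23.5% and the lowest of 26.4%. The members' counts below 0 are therefore also given without these libraries. In bulk tissue, fewer cells of a type and less RNA per cell cannot be told apart.

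Human reads of the same gene symbols were examined first, since a read from a conserved stretch may align to human and mouse alike. Of the 35 members 33 had a same-named human gene, Oas1a and Oasl2 being the exceptions, and 28 of the 33 had more human than mouse reads over the 17 libraries. Mouse reads per 100 human reads ran from 2.63 for Mx1 to 28090 for Cxcl9, with a median of 15.9. For comparison, 17 epithelial genes, whose mouse reads in a human carcinoma can come from skin or from mismapped tumour reads, gave 0.0351 to 65.3, with a median of 3.70. The mouse value exceeded the human value in Irf7, Zbp1, Gbp3, Cxcl9 and Rtp4. Between libraries the number of mouse reads per 100 human reads varied from 3.44-fold (Ifih1) to 388-fold (Cxcl9) among the members, with a median of 6.55-fold. Of the 17 epithelial genes, 14 had mouse reads in every library, and these varied from 1.28-fold (Krt17) to 59.7-fold (Krt16), with 7 of the 14 above 3.44-fold, so the ranges overlapped. The members with the fewest mouse reads per 100 human reads were Mx1 (2.63), Herc6 (4.82), Ifit1 (5.87) and Isg15 (5.96). Cxcl10 gave 8.23 and Cmpk2 8.97. The part of mismapped human reads in the mouse counts of these genes was not tested.

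**Figure D1:**
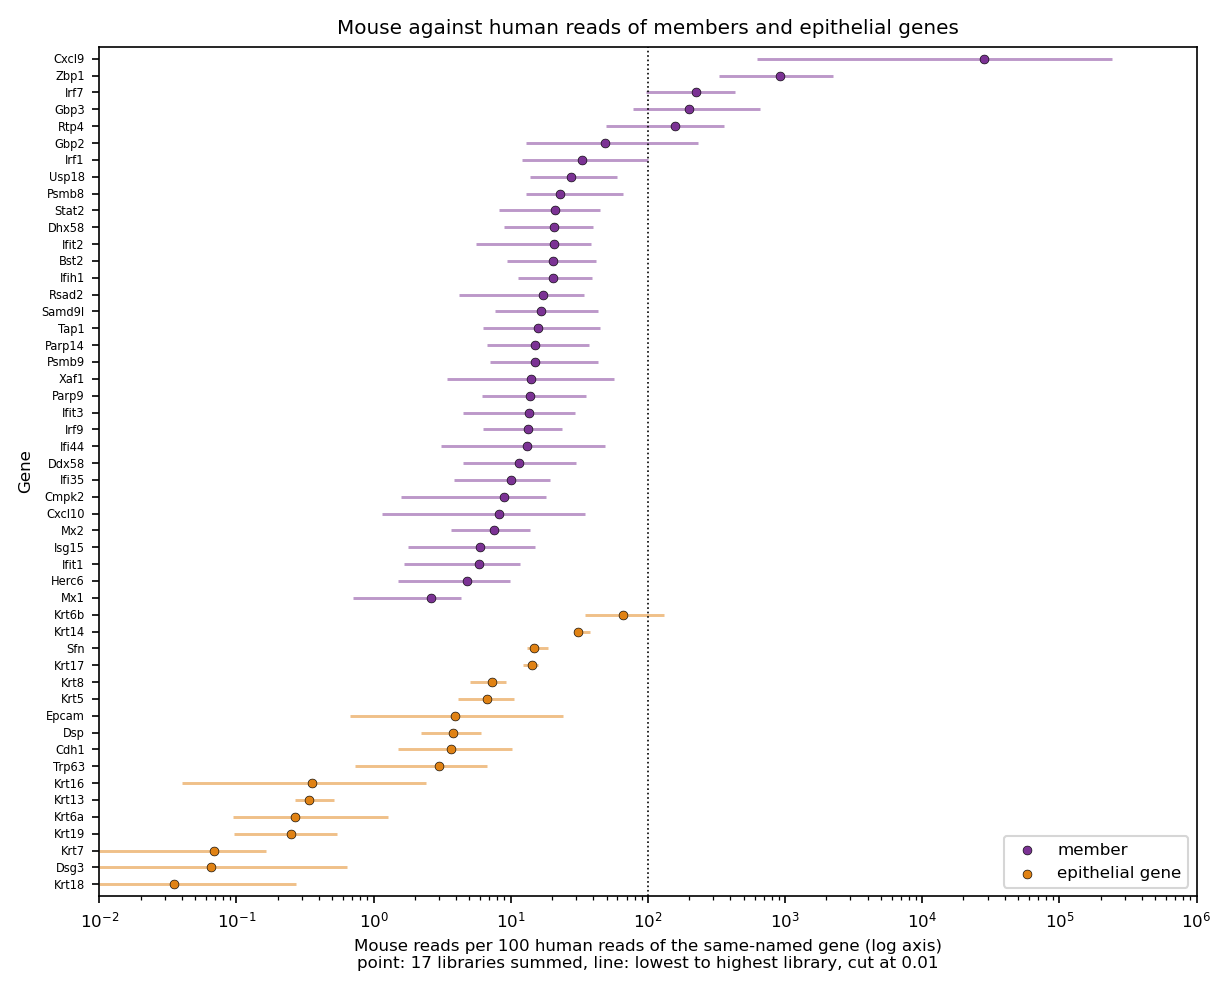
Mouse reads per 100 human reads of the same-named gene, on a log axis, for 33 members (purple) and 17 epithelial genes (orange). Points are sums over the 17 libraries, lines run from the lowest to the highest library, and the dotted line marks equal mouse and human reads; 5 members lie to its right, and the lengths of the members' lines overlap those of the epithelial genes.

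None of the 35 members passed an adjusted p of 0.05 in any of the 7 comparisons by limma. The members stood lowest in the combination group: its mean was the lowest of the 4 treatment arms for 21 members and the highest for 0, against 25.7% and 24.9% of all genes. The nintedanib arm had the highest mean for 19 members and the lowest for 0, against 21.1% and 19.1% of all genes. The alpelisib arm had the highest mean for 7 and the lowest for 7, against 21.9% and 22.9% of all genes. Vehicle had the highest for 9 and the lowest for 7, against 32.1% and 32.3% of all genes. By single libraries, the combination libraries held the lowest value of 21 members (25.0% of all genes) and the nintedanib libraries the highest value of 22 (25.8% of all genes). The combination libraries were not alike. Combination 2 held the lowest value of 11 members (5.28% of all genes) and Combination 1 of 5 (3.09%). Combination 4 held the highest value of 3 (8.49%). In Combination 1, 2, 3 and 4, 1, 6, 9 and 22 members lay above their own mean over the libraries.

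**Figure D2:**
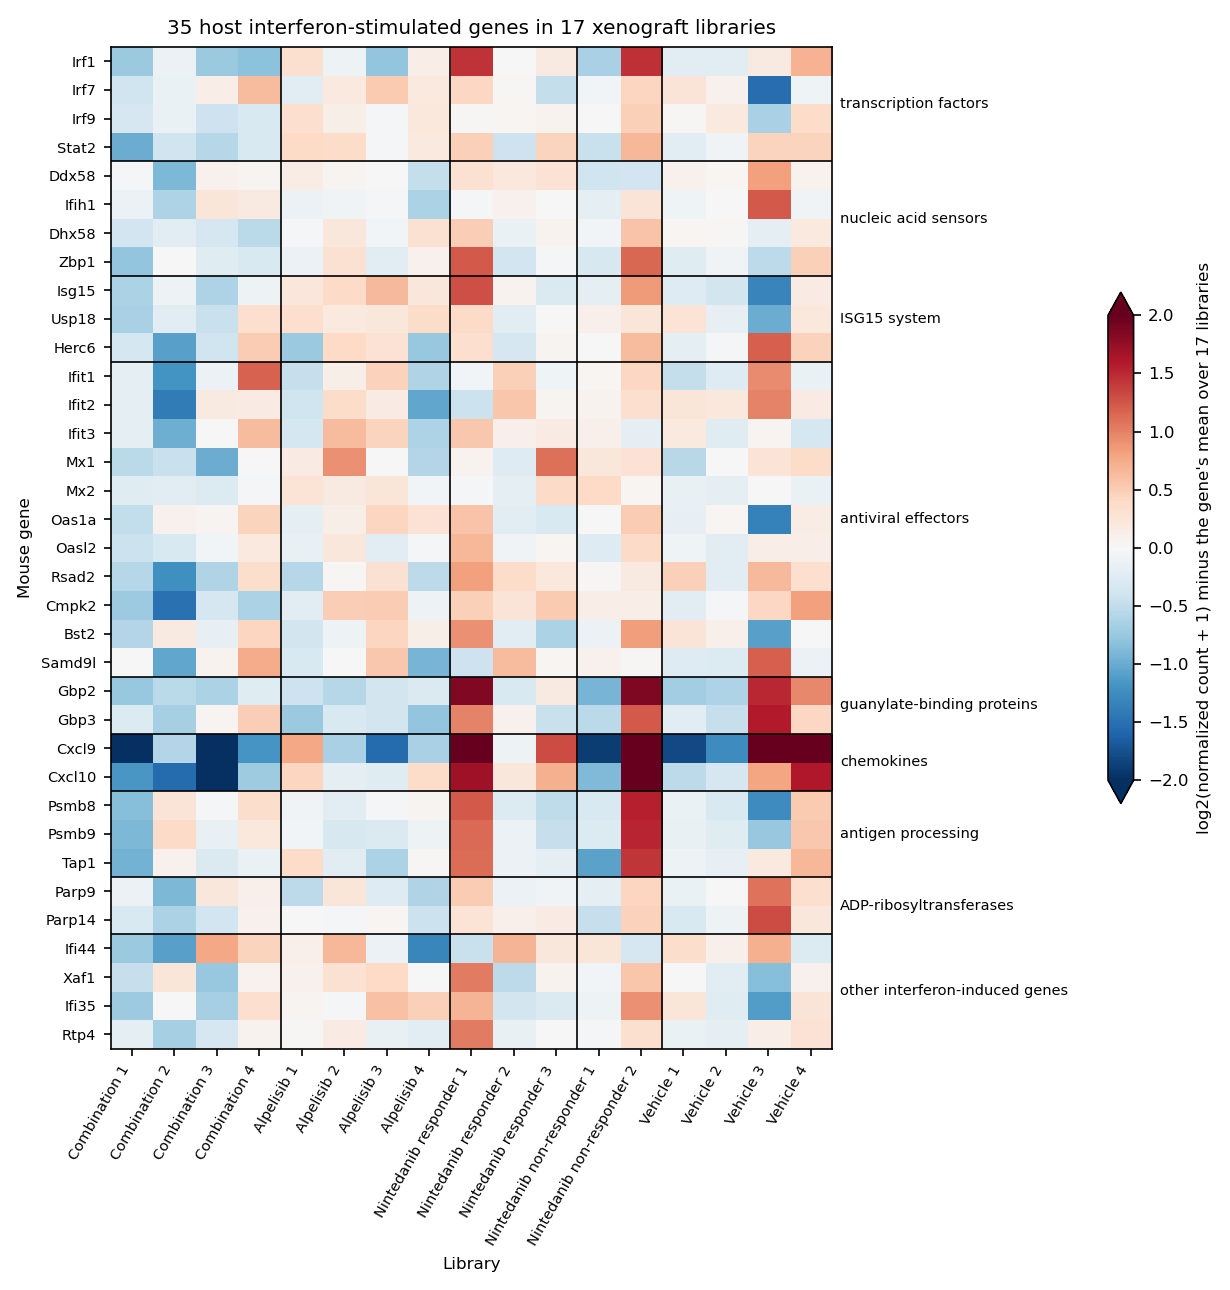
Heat map of the 35 members (rows, by role) in the 17 libraries (columns, by group), coloured by log2(normalized count + 1) minus the gene's mean over the libraries, with the scale ending at -2 and 2. Nintedanib non-responder 2 holds the highest value of 11 members and Nintedanib responder 1 of 9; Vehicle 3 holds the highest of 8 and the lowest of 9.

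For the combination against vehicle, 28 of 35 members had a change below 0 (51.8% of all genes did), with a median of -0.34 log2 against -0.02 over all genes. None was called by limma, where 0.778% of all genes were called, nor by edgeR or limma-voom on recovered reads. DESeq2 called 2 members lower, Cmpk2 (-1.10, adjusted p = 0.0207) and Cxcl10 (-1.99, adjusted p = 0.0142). At an unadjusted p of 0.05 by limma, 4 members were lower (6.87% of all genes) and 0 higher. In 4 members, Stat2, Dhx58, Cmpk2 and Cxcl10, every combination library lay below every vehicle library (4.74% of all genes). Leaving out Combination 2 moved the median to -0.22 with 28 members below 0, leaving out Vehicle 3 to -0.26 with 31, and leaving out the 4 libraries rich in ribosomal reads to -0.38 with 32. Other cell types' markers were examined in the same comparison. The 17 epithelial genes summed to 82523 to 251792 normalized counts in combination and 37346 to 66835 in vehicle libraries, with no overlap. Of the 14 tested, 10 lay above 0, 3 were called higher and 6 were higher at an unadjusted p of 0.05. Endothelial markers (12 of 12 detected) summed to 1940 to 2581 against 3528 to 5934, with no overlap. All 12 lay below 0, with a median of -1.06, 2 called lower and 10 lower at an unadjusted p of 0.05. Macrophage markers (15 of 15 detected) summed to 18995 to 31881 against 13758 to 22754, which overlap, and 0 of the 15 were called, 5 being higher and 1 lower at an unadjusted p of 0.05. Of the natural killer cell markers 9 of 10 lay below 0, with a median of -1.01. Of the T cell markers tested 7 of 7 did, with a median of -0.99. In both lists 0 were called and 0 had an unadjusted p under 0.05. The part of these cell types and of epithelial carry-over in the members' values was not tested.

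For alpelisib against vehicle, 20 of 35 members lay below 0 (49.1% of all genes), with a median of -0.08 against 0.01. Limma called 0 members and 0% of all genes, and edgeR and limma-voom called 0 members, as did DESeq2 among the 19 it gave an adjusted p. By limma 1 member, Isg15, was higher at an unadjusted p of 0.05 (6.03% of all genes were) and 0 were lower. Isg15 was also the only member higher in every alpelisib than in every vehicle library (4.18% of all genes). With 1 library left out the median ran from -0.17 without Alpelisib 2 to 0.03 without Vehicle 4, and was -0.04 without Vehicle 3, so its sign depended on single libraries. Without the 4 libraries rich in ribosomal reads 20 members lay below 0, with a median of -0.03. The epithelial genes summed to 94915 to 163647 in alpelisib against 37346 to 66835 in vehicle libraries, with 0 of 14 called and 7 higher at an unadjusted p of 0.05, and their part was not tested.

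For nintedanib against vehicle, 25 of 35 members lay above 0 (51.9% of all genes), with a median of 0.21 against 0.02. Limma called 0 members (0.152% of all genes), as did edgeR, limma-voom and DESeq2. At an unadjusted p of 0.05, 1 member was higher (Isg15; 4.88% of all genes) and 0 were lower. In 0 members did the nintedanib libraries all lie above the vehicle libraries (0.93% of all genes). The median ranged from 0.09 without Vehicle 1 to 0.26 without Nintedanib non-responder 1, and it was 0.13 without Nintedanib responder 1 and 0.10 without Nintedanib non-responder 2. Without the 4 libraries rich in ribosomal reads it was 0.17, with 5 members below 0. In the same comparison 12 of 12 endothelial markers lay below 0, with a median of -1.08, 0 called and 10 lower at an unadjusted p of 0.05. Their sums were 1693 to 2991 in nintedanib and 3528 to 5934 in vehicle libraries, which do not overlap. All 10 natural killer cell markers lay above 0, with a median of 0.62 and 0 called or past an unadjusted p of 0.05. The part of these cells in the members' values was not tested. These 3 comparisons share the vehicle libraries.

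Against nintedanib alone, all 35 members were lower in the combination (49.4% of all genes were), with a median of -0.43 against 0.01. Limma called 0 members and 0% of all genes, edgeR and limma-voom called 0 members, and DESeq2 called Cxcl10 (-2.46, adjusted p = 0.00379). At an unadjusted p of 0.05 by limma, 10 members were lower (4.19% of all genes) and 0 higher. Irf9, Dhx58 and Cmpk2 were lower in every combination than in every nintedanib library (1.41% of all genes). Leaving out Combination 2 left 28 members below 0, and leaving out Combination 1, Nintedanib responder 1 or Nintedanib non-responder 2 left 33 in each case. Without the 4 libraries rich in ribosomal reads all 35 lay below 0, with a median of -0.50. All 10 natural killer cell markers also lay below 0 here, with a median of -1.65, and 12 of 14 epithelial genes above 0, with a median of 0.84. Of these markers 0 were called, and their part was not tested.

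Against alpelisib alone, 28 members were lower in the combination (48.4% of all genes), with a median of -0.20 against 0.01. Limma called 0 members (0.00845% of all genes), as did edgeR, limma-voom and DESeq2. By limma 6 members were lower at an unadjusted p of 0.05 (3.65% of all genes) and 0 higher. The same 6, Irf9, Stat2, Dhx58, Isg15, Cmpk2 and Cxcl10, lay lower in every combination than in every alpelisib library (2.14% of all genes). The median was -0.13 without Combination 2 and -0.35 without Combination 4, and it was -0.32 without Alpelisib 4. Without the 4 libraries rich in ribosomal reads it was -0.35, with 29 members below 0. In the same comparison 11 of 12 endothelial markers lay below 0, with a median of -0.93, 0 called and 7 lower at an unadjusted p of 0.05. Of the macrophage markers 13 of 15 lay above 0, with a median of 0.67, 0 called and 7 higher at that p. The part of these cells in the members' values was not tested. The comparisons of the combination with each drug share the combination libraries.

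**Figure D3:**
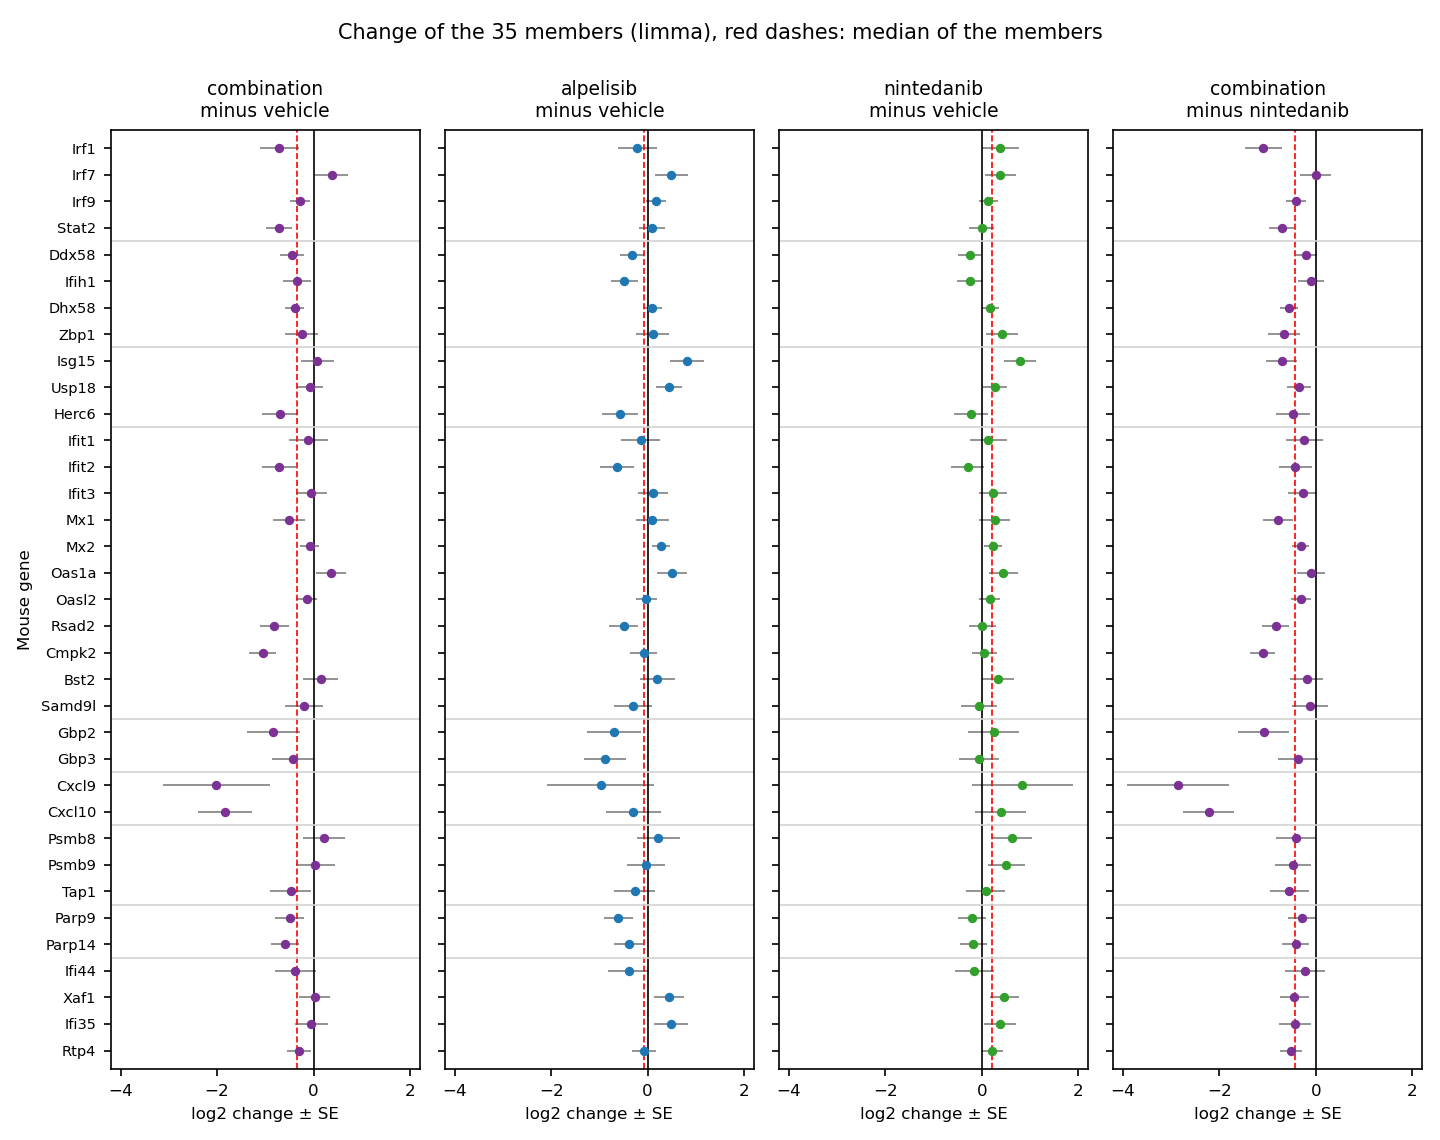
Log2 change ± SE from limma for each of the 35 members (rows, by role) in 4 comparisons, with a red dashed line at the members' median: -0.34, -0.08, 0.21 and -0.43 from left to right. In the panel of the combination against nintedanib all 35 points lie below 0; Cxcl9 and Cxcl10 lie farthest from it and Cxcl9 has the widest error.

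The departure from additivity is the combination's log2 change minus the sum of the changes under alpelisib and nintedanib, each against vehicle, and it is below 0 where the combination is lower than that sum. It was below 0 for 27 of 35 members (53.1% of all genes), with a median of -0.44 against -0.04. Limma, edgeR, limma-voom and DESeq2 called 0 members, and limma called 0% of all genes. At an unadjusted p of 0.05, 7 members were below 0 (2.72% of all genes) and 0 above. The smallest p values belonged to Isg15 (-1.53 ± 0.47 SE, adjusted p = 0.84), Cmpk2 (-1.02 ± 0.39, adjusted p = 0.84) and Cxcl10 (-1.92 ± 0.77, adjusted p = 0.84), followed by Dhx58 at -0.66 ± 0.27 and Mx2 at -0.59 ± 0.26. For Isg15 it was -1.24 without Vehicle 3. Without the 4 libraries rich in ribosomal reads 32 members lay below 0, with a median of -0.52.

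Transcription factors came first in the pathway. Stat2, part of the complex that type I interferons activate, had 196, 298, 263 and 318 normalized counts in the combination libraries, 515, 506, 381 and 448 in alpelisib, 545, 293 and 529.5 in nintedanib responders, 287 and 619 in nintedanib non-responders, and 332, 374, 533 and 532 in vehicle libraries. The combination libraries lay below all alpelisib and vehicle libraries, and 2 nintedanib libraries lay among them. The change was -0.71 ± 0.27 log2 (SE) for the combination against vehicle (limma, adjusted p = 0.193) and -0.79 ± 0.27 against alpelisib (adjusted p = 0.656). Irf9, which carries the DNA-binding part of that complex, had 201, 231, 188 and 204 in combination, 317, 275, 249 and 294 in alpelisib, 255, 259 and 266 in nintedanib responders, 251 and 351 in non-responders, and 258, 289.5, 161 and 324 in vehicle libraries. All combination values were below all alpelisib and nintedanib values, and Vehicle 3, at 161, was the lowest of all. Irf9 differed by -0.46 ± 0.21 from alpelisib (adjusted p = 0.794) and by -0.41 ± 0.20 from nintedanib (adjusted p = 0.714).

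Irf1, an activator that interferon gamma induces strongly, had 266, 408, 263 and 252 normalized counts in combination, 554, 414, 256 and 484 in alpelisib, 1209, 441 and 505 in nintedanib responders, 283 and 1224 in non-responders, and 380.4, 377, 501 and 715 in vehicle libraries. The values of 1209 and 1224 stood far above all others, and the groups overlapped. The combination differed from nintedanib by -1.09 ± 0.38 (adjusted p = 0.584) and from vehicle by -0.71 ± 0.40 (adjusted p = 0.396). Irf7, which amplifies type I interferon production, had 933, 1117, 1347 and 1898 in combination, 1049, 1403, 1757 and 1395 in alpelisib, 1626, 1243 and 884 in nintedanib responders, 1182 and 1644 in non-responders, and 1461, 1299.8, 427 and 1149.9 in vehicle libraries. Apart from Vehicle 3 at 427 the groups overlapped over most of their range, and Irf7 was 1 of 7 members with a change above 0 for the combination against vehicle (0.38 ± 0.34, adjusted p = 0.609).

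Among the sensors, Dhx58 encodes LGP2, a helicase that tunes the RNA sensors RIG-I and MDA5. It had 127, 145, 132 and 115 normalized counts in combination, 163, 196, 162 and 207 in alpelisib, 236, 153 and 176 in nintedanib responders, 161 and 248 in non-responders, and 171, 169.5, 147 and 192 in vehicle libraries. Every combination library lay below every other library, the closest being Vehicle 3 at 147. The difference was -0.39 ± 0.20 from vehicle (adjusted p = 0.344), -0.48 ± 0.20 from alpelisib (adjusted p = 0.761) and -0.56 ± 0.19 from nintedanib (adjusted p = 0.571).

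Zbp1, a sensor of Z-form nucleic acid, had 222, 384, 326 and 310.4 normalized counts in combination, 355, 475, 328 and 409 in alpelisib, 897, 293 and 379 in nintedanib responders, 309 and 854 in non-responders, and 325, 366, 266 and 535 in vehicle libraries. Only Nintedanib responder 1 and Nintedanib non-responder 2 passed 535. Ddx58, which encodes RIG-I, had 142, 77.4, 154 and 151 in combination, 160.3, 150.4, 145 and 104 in alpelisib, 179, 167 and 177 in nintedanib responders, 110.1 and 111 in non-responders, and 153, 149, 257 and 153 in vehicle libraries. Vehicle 3 was highest at 257 and Combination 2 lowest at 77.4. Ifih1, which encodes MDA5, ranged from 107 to 194 in combination, 105 to 160.4 in alpelisib, 144 to 197 in nintedanib and 154 to 386 in vehicle libraries, again with Vehicle 3 at the top.

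Isg15, a ubiquitin-like protein that is attached to other proteins, was the member with the smallest p for both single drugs. It had 241, 346, 244 and 348 normalized counts in combination, 437, 488, 586 and 436 in alpelisib, 915, 392 and 306 in nintedanib responders, 327 and 674 in non-responders, and 311, 288, 149 and 419 in vehicle libraries. All alpelisib libraries lay above all combination and vehicle libraries, and the combination and vehicle ranges overlapped. The change was 0.82 ± 0.34 for alpelisib (adjusted p = 0.44), 0.79 ± 0.33 for nintedanib (adjusted p = 0.561) and 0.08 ± 0.34 for the combination (adjusted p = 0.93), each against vehicle. Without Vehicle 3 it was 0.53 for alpelisib and 0.50 for nintedanib. Human ISG15 changed in the same direction for both single drugs, and its part in the mouse counts was not tested. Usp18, the protease that removes ISG15, ranged from 109 to 214 in combination, 196 to 219 in alpelisib, 146 to 222 in nintedanib and 85.0 to 205 in vehicle libraries. Herc6, the mouse ISG15 ligase, ranged from 39.2 to 121 in combination, 49.4 to 111 in alpelisib, 66.5 to 132 in nintedanib and 74.4 to 195 in vehicle libraries. Both overlapped between all groups.

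Of the 11 antiviral effectors, 9 had a change below 0 for the combination against vehicle, with a median of -0.14. Cmpk2, a mitochondrial nucleotide kinase that lies beside Rsad2 in the genome, gave the smallest p among the members for the combination against vehicle. It had 31.6, 18.1, 41.8 and 33.7 normalized counts in combination, 45.1, 75.2, 75.5 and 49.4 in alpelisib, 74.5, 63.7 and 76.4 in nintedanib responders, 58.1 in both non-responders, and 45.5, 52.1, 71.2 and 94.4 in vehicle libraries. Every combination library lay below every other library, although 41.8 in Combination 3 and 45.1 in Alpelisib 1 were close. The combination averaged 31.3 ± 9.84 (SD, n = 4) and vehicle 65.8 ± 22 (SD, n = 4), a log2 change of -1.05 ± 0.28 (SE, limma, adjusted p = 0.0778). Over the alternatives the change ran from -1.21 to -0.82 and the adjusted p from 0.0207 (DESeq2) to 0.267. Against alpelisib Cmpk2 differed by -0.97 ± 0.28 (adjusted p = 0.454) and against nintedanib by -1.11 ± 0.27 (adjusted p = 0.40). Its counts were low, with 18 to 34 mouse reads in a combination library.

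Rsad2, which encodes viperin, had 71.5, 45.3, 70.1 and 136 normalized counts in combination, 71.6, 108, 132 and 73.6 in alpelisib, 189.7, 138 and 123 in nintedanib responders, 109 and 121 in non-responders, and 149, 90.8, 168 and 135 in vehicle libraries. Combination 4, at 136, lay among the vehicle values, while the other 3 combination libraries lay below them. The difference was -0.82 ± 0.30 from vehicle (adjusted p = 0.178) and -0.83 ± 0.29 from nintedanib (adjusted p = 0.583). Mx2, a dynamin-like GTPase, had 52.0, 52.3, 50.4 and 59.8 in combination, 74.7, 69.9, 73.1 and 59.1 in alpelisib, 60.3, 53.9 and 80.3 in nintedanib responders, 81.7 and 62.9 in non-responders, and 55.1, 54.0, 62.0 and 56.1 in vehicle libraries. Its values spanned a narrow range, and the combination and vehicle libraries overlapped.

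Oas1a, an oligoadenylate synthetase that activates RNase L, had 232, 349, 342 and 447 normalized counts in combination, 289, 357, 442 and 403 in alpelisib, 489, 284 and 266 in nintedanib responders, 332 and 468 in non-responders, and 292, 336, 129 and 364 in vehicle libraries. Vehicle 3 was lowest at 129 and the other vehicle values lay inside the treated ranges. For nintedanib against vehicle Oas1a differed by 0.45 ± 0.29 (adjusted p = 0.613), and by 0.11 without Vehicle 3. Bst2, or tetherin, which holds budding virus at the cell surface, had 499.8, 859, 674 and 1022 in combination, 587, 700.3, 1019 and 819 in alpelisib, 1419, 651 and 487 in nintedanib responders, 693 and 1349.7 in non-responders, and 903, 809, 354 and 756 in vehicle libraries. Nintedanib responder 1 and Nintedanib non-responder 2 were the highest and Vehicle 3 the lowest.

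The other antiviral members were given by their ranges. Ifit1 ran from 47.3 to 249 in combination, 72.0 to 152 in alpelisib, 104 to 153 in nintedanib and 78.6 to 214 in vehicle libraries. Ifit2 ran from 79.5 to 237, 102 to 273, 156 to 309 and 237 to 418 in the same order of groups, and Ifit3 from 147 to 450.0, 189 to 449, 255 to 419 and 226 to 329. The IFIT proteins bind viral RNA. Mx1 ran from 44.3 to 88.5 in combination, 59.1 to 169.6 in alpelisib, 74.6 to 193 in nintedanib and 60.6 to 115 in vehicle libraries. Oasl2 ran from 335 to 515 in combination, 389 to 525 in alpelisib, 377 to 715 in nintedanib and 389.9 to 496 in vehicle libraries. Samd9l ran from 57.3 to 199 in combination, 62.3 to 173 in alpelisib, 88.7 to 185 in nintedanib and 98.4 to 273 in vehicle libraries. In these 6 the groups overlapped, and Combination 2 held the lowest value of Ifit1, Ifit2, Ifit3 and Samd9l. Members of the Ifit, Mx, Oas and Gbp families have close relatives, and how reads shared between them were counted is not given in the sources used here, so their values are uncertain to that degree.

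**Figure D4:**
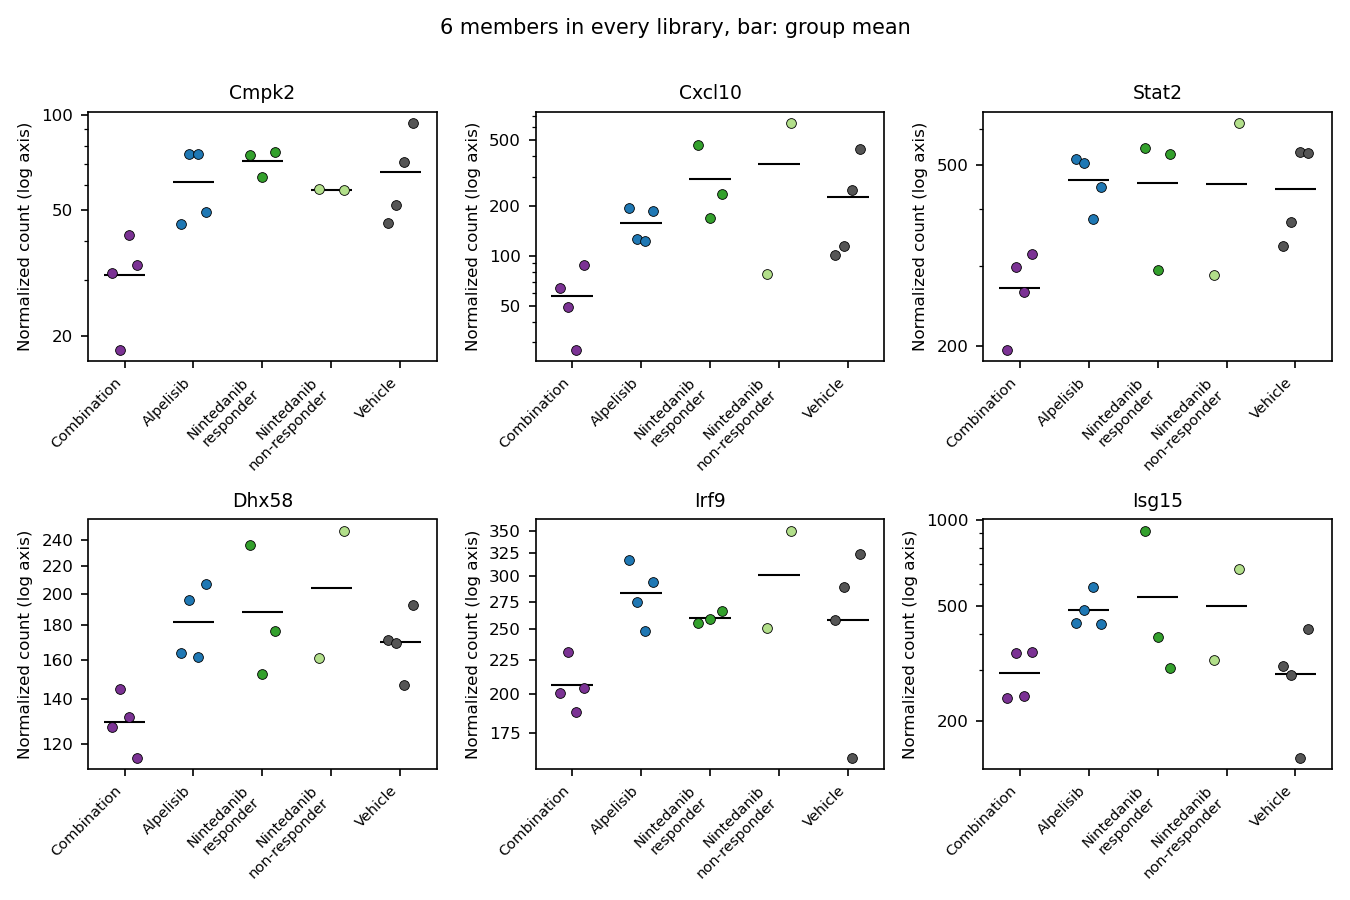
Normalized counts (log axis) of Cmpk2, Cxcl10, Stat2, Dhx58, Irf9 and Isg15 in each of the 17 libraries, by group, with a bar at the group mean. For Cmpk2 and Dhx58 the combination points lie below all others; for Isg15 the alpelisib points, 436 to 586, lie above the combination and vehicle points.

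The chemokines Cxcl9 and Cxcl10, ligands of CXCR3 that draw T cells and natural killer cells, showed the widest spread. Cxcl9 had 59.5, 212, 76.3 and 141 normalized counts in combination, 548, 203, 109.7 and 203 in alpelisib, 3260.3, 298 and 796 in nintedanib responders, 85.4 and 4559 in non-responders, and 91.0, 134, 1653 and 1826 in vehicle libraries. The values over 1000 came from Nintedanib responder 1, Nintedanib non-responder 2, Vehicle 3 and Vehicle 4, while every combination library was at or below 212. The change was -2.01 ± 1.10 for the combination against vehicle (adjusted p = 0.379) and -2.86 ± 1.05 against nintedanib (adjusted p = 0.584). Cxcl10 had 64.1, 49.3, 27.1 and 88.5 in combination, 195, 126, 123 and 188 in alpelisib, 469, 169.8 and 237 in nintedanib responders, 77.9 and 639 in non-responders, and 101, 115, 250.3 and 442 in vehicle libraries. All combination libraries lay below all alpelisib and vehicle libraries, and only Nintedanib non-responder 1, at 77.9, lay among them.

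For Cxcl10 the combination averaged 57.2 ± 25.8 (SD, n = 4) and vehicle 227 ± 158 (SD, n = 4), a change of -1.83 ± 0.56 (SE, limma, adjusted p = 0.115). Over the alternatives it ran from -2.21 to -1.42, with adjusted p from 0.0142 (DESeq2) to 0.285. The combination differed from nintedanib by -2.22 ± 0.53 (adjusted p = 0.40, and 0.00379 to 1 over the alternatives) and from alpelisib by -1.53 ± 0.56 (adjusted p = 0.692). Human CXCL10 had far more reads than mouse Cxcl10, with 2035 ± 398 human normalized counts in combination (SD, n = 4) and 2366 ± 870 in vehicle libraries (SD, n = 4), a change of -0.16 ± 0.39 (limma, adjusted p = 0.848).

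Gbp2 and Gbp3 encode guanylate-binding GTPases that act on pathogen vacuoles and are induced by interferon gamma. Gbp2 had 141, 165, 155 and 202 normalized counts in combination, 181, 162, 186 and 196 in alpelisib, 866, 194 and 271 in nintedanib responders, 126 and 878 in non-responders, and 147, 156, 684 and 469 in vehicle libraries. The combination and alpelisib libraries stayed at or below 202, whereas 3 nintedanib and 2 vehicle libraries lay above that. Gbp3 had 166, 127, 209 and 284 in combination, 119.8, 163, 157 and 117 in alpelisib, 402, 215 and 147 in nintedanib responders, 139 and 474 in non-responders, and 172, 146, 606 and 268 in vehicle libraries. Alpelisib differed from vehicle by -0.88 ± 0.44 for Gbp3 (adjusted p = 0.481), and by -0.46 without Vehicle 3, which held the value of 606.

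Psmb8 and Psmb9 encode immunoproteasome subunits, and Tap1 a subunit of the peptide transporter that loads MHC class I. Psmb8 had 383, 828, 681 and 882 normalized counts in combination, 658, 588, 684 and 720.2 in alpelisib, 1619, 569 and 486 in nintedanib responders, 559 and 2031 in non-responders, and 631, 563, 289 and 993 in vehicle libraries. Nintedanib responder 1 and Nintedanib non-responder 2 were the only libraries over 1000, and the remaining libraries of all groups overlapped. Psmb9 ran from 163 to 399 in combination, 245 to 294 in alpelisib, 221 to 879 in nintedanib and 179 to 442 in vehicle libraries. Tap1 ran from 224 to 463, 278 to 559, 205 to 1171 and 387 to 688 in the same order. The median change of the 3 genes was 0.04 for the combination, -0.04 for alpelisib and 0.51 for nintedanib, each against vehicle, and 0 of them was called.

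Parp9 and Parp14 encode ADP-ribosyltransferases that act on interferon signalling. Parp14 had 282, 225, 266 and 368 normalized counts in combination, 347, 340.1, 356 and 258 in alpelisib, 419, 373 and 391 in nintedanib responders, 254 and 478 in non-responders, and 281, 324, 863 and 409 in vehicle libraries. Vehicle 3, at 863, was far above the rest. Parp9 had 189, 109, 239.9 and 218 in combination, 142, 241, 171 and 134 in alpelisib, 289.9, 189 and 194 in nintedanib responders, 178 and 276 in non-responders, and 186, 204, 434 and 258 in vehicle libraries. Alpelisib differed from vehicle by -0.61 ± 0.30 for Parp9 (adjusted p = 0.484), and by -0.35 without Vehicle 3.

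Among the other induced genes, Xaf1, an antagonist of the apoptosis inhibitor XIAP, had 142, 232, 116 and 207 normalized counts in combination, 209, 243, 259 and 194 in alpelisib, 406, 137 and 207 in nintedanib responders, 189 and 289 in non-responders, and 196, 168, 108 and 209 in vehicle libraries. The groups overlapped, with Nintedanib responder 1 highest and Vehicle 3 lowest. For nintedanib against vehicle Xaf1 differed by 0.47 ± 0.30 (adjusted p = 0.611), but by 0.27 without Vehicle 3 and by 0.26 without Nintedanib responder 1. Rtp4, a receptor chaperone known to bind viral RNA, had 259, 187, 235 and 313 in combination, 300.4, 332, 268 and 253 in alpelisib, 608, 266 and 299 in nintedanib responders, 292 and 369 in non-responders, and 272, 261, 324 and 364 in vehicle libraries. Only Nintedanib responder 1, at 608, stood apart. Ifi35 had 109.6, 181, 114 and 228 in combination, 188, 177, 271 and 252 in alpelisib, 292, 140.0 and 148 in nintedanib responders, 168 and 342 in non-responders, and 215, 154, 82.7 and 216 in vehicle libraries. Ifi44 ranged from 122 to 444 in combination, 105 to 412 in alpelisib, 191 to 417 in nintedanib and 215 to 429 in vehicle libraries, and neither gene separated any groups.

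Responders and non-responders to nintedanib were compared over 3 and 2 libraries. Of the members 18 of 35 lay below 0 (54% of all genes), with a median of -0.01 against -0.03. Limma, edgeR, limma-voom and DESeq2 called 0 members, limma called 0% of all genes, and 0 members had an unadjusted p under 0.05. Ddx58, Ifit3, Rsad2 and Cmpk2 were higher in all 3 responders than in both non-responders (7.65% of all genes). Ddx58 had the smallest p, with 174 ± 6.41 normalized counts in responders (SD, n = 3) and 111 ± 0.815 in non-responders (SD, n = 2), a change of 0.65 ± 0.31 (limma, adjusted p = 1). Rsad2 differed by 0.36 ± 0.39 and Ifi35 by -0.39 ± 0.45, each with an adjusted p of 1. The median rested on the non-responders: it was -0.42 without Nintedanib non-responder 1 and 0.29 without Nintedanib non-responder 2.

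High values clustered in a few libraries. Nintedanib non-responder 2 held the highest of 17 values for 11 members, Irf1, Irf9, Stat2, Dhx58, Gbp2, Cxcl9, Cxcl10, Psmb8, Psmb9, Tap1 and Ifi35 (9.92% of all genes were highest there). Nintedanib responder 1 held the highest value for 9, Zbp1, Isg15, Usp18, Oas1a, Oasl2, Rsad2, Bst2, Xaf1 and Rtp4 (6.20% of all genes). The same libraries were high for natural killer cell markers, of which 10 of 10 were detected. Their summed level was 102 to 167 normalized counts in combination, 102 to 275 in alpelisib, 126 to 1494 in nintedanib and 110.5 to 482 in vehicle libraries. Nintedanib non-responder 2 stood at 1494, Nintedanib responder 1 at 857, Vehicle 4 at 482 and Vehicle 3 at 374. T cell markers, of which 8 of 9 were in the table, summed to 127 to 196 in combination, 91.4 to 352 in alpelisib, 110.1 to 844 in nintedanib and 135 to 555 in vehicle libraries.

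Among single markers, Ncr1, a receptor of natural killer cells, had 5.57, 8.05, 4.92 and 8.73 normalized counts in combination, against 62.3 in Nintedanib responder 1 and 90.7 in Nintedanib non-responder 2. Cd3e, a chain of the T cell receptor complex, was at 0 in 6 libraries and highest in Vehicle 3 at 39.0. It had 38.6 in Nintedanib responder 1, 36.5 in Vehicle 4 and 35.1 in Nintedanib non-responder 2. Cd3d, Cd3g, Cd8b1, Lck and Cd28 were highest in Nintedanib non-responder 2, at 120, 137, 67.7, 250 and 18.1, and Cd8a in Vehicle 4 at 106. Cd4, which macrophages can also carry, was highest in Alpelisib 1 at 219, with 112 in Nintedanib non-responder 2 and 92.1 in Nintedanib responder 1, so it did not follow the T cell sum. Ifng, the gene of interferon gamma, averaged 5.88 over the 17 libraries, below the minimum of 10 for testing. It had 32.7 in Nintedanib non-responder 2, 16.9 in Nintedanib responder 1, 15.0 in Vehicle 4 and 13.8 in Vehicle 3, and at most 6.24 in the other libraries. Cxcl9 passed 1000 in the same 4 libraries. The part of lymphocytes in the members' values was not tested.

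**Figure D5:**
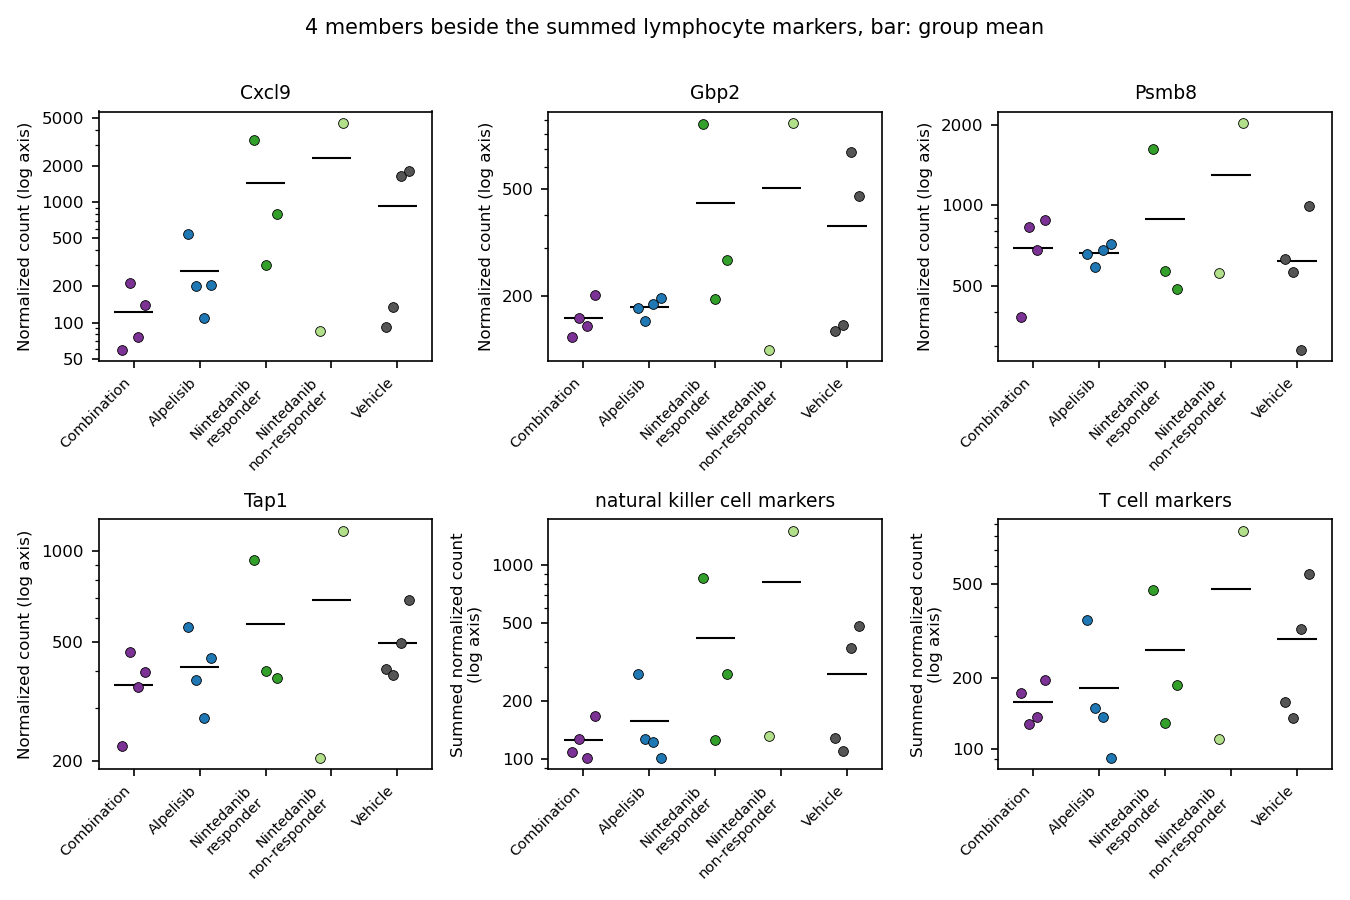
Normalized counts (log axis) of Cxcl9, Gbp2, Psmb8 and Tap1 in each library, beside the summed normalized counts (log axis) of natural killer cell and T cell markers, with a bar at the group mean. The highest nintedanib points in all panels are Nintedanib non-responder 2 and Nintedanib responder 1. The combination points run from 59.5 to 212 for Cxcl9, 102 to 167 for the natural killer cell sum and 127 to 196 for the T cell sum. In these panels they overlap the points of the other groups.

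Vehicle 3 showed a different set. Its 8 highest members were Ddx58, Ifih1, Herc6, Ifit2, Samd9l, Gbp3, Parp9 and Parp14, and all 8 were also highest there among the human reads of the same symbols. Of its 9 lowest members 8 had a human gene of that name, and 5 of these (IRF9, ISG15, BST2, PSMB8 and IFI35) were also lowest there among human reads. Over all mouse genes tested this library held the highest value of 23.5% and the lowest of 26.4%. The same shares over all human genes were not counted. Vehicle 3 had the fewest human reads, 7429753, and ribosomal rows took 72.9% of its mouse reads. The part of either in these values was not tested.

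The human genes named like the members were read as genes of the tumour cells, although host reads from conserved stretches may also align to them. Of the 33 listed genes 32 were tested, and limma called 0 in all 7 comparisons, where 0.358% of all human genes were called for the combination against vehicle and 0% in the other 6. For the combination against vehicle 21 of 32 lay above 0 (47.2% of all human genes), with a median of 0.15, and the medians were 0.16 for alpelisib and 0.16 for nintedanib. ISG15 had 10115 ± 4573 human normalized counts in combination (SD, n = 4) and 3782 ± 1909 in vehicle libraries (SD, n = 4), a change of 1.48 ± 0.44 (SE, limma, adjusted p = 0.124), beside 0.08 ± 0.34 for mouse Isg15. For CMPK2 the human change was -0.21 ± 0.35 (adjusted p = 0.775), beside -1.05 ± 0.28 for mouse Cmpk2. Against vehicle, human ISG15 also differed by 1.42 ± 0.44 for alpelisib (limma, adjusted p = 0.21), beside 0.82 ± 0.34 for mouse Isg15. For nintedanib it differed by 0.97 ± 0.42 (limma, adjusted p = 0.619), beside 0.79 ± 0.33 for mouse Isg15. The difference between the genomes was not tested.

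Among genes that act above the members, those for type I interferons were at or near 0. Ifna1, Ifna2, Ifna4, Ifna5, Ifna11 and Ifnab were at 0 in all 17 libraries, and Ifnb1 averaged 0.409 and was at 0 in 11. Of the receptors, kinases, factors, inhibitors and sensors of the pathway, 24 were tested and limma called 0 in the 3 comparisons with vehicle. For the combination against vehicle 17 of the 24 lay below 0, with a median of -0.19. Ifngr1, a chain of the interferon gamma receptor, had 532, 529, 433 and 536 normalized counts in combination and 398, 374, 191 and 321 in vehicle libraries, a change of 0.71 ± 0.25 (adjusted p = 0.16). Tlr9, a sensor of DNA, differed by -1.22 ± 0.50 (adjusted p = 0.229) for the combination and by -1.16 ± 0.50 (adjusted p = 0.451) for alpelisib against vehicle. For alpelisib, Jak1, a kinase of both receptors, differed by -0.63 ± 0.27 (adjusted p = 0.45) and Tlr7, a sensor of RNA, by -0.98 ± 0.42 (adjusted p = 0.451). For nintedanib, Tlr3, a sensor of double-stranded RNA, differed by -0.59 ± 0.29, the adaptor gene Myd88 by 0.47 ± 0.24 and Ifngr1 by 0.46 ± 0.24, each with an adjusted p of 0.587.

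A wider list of 69 tested interferon-induced genes, none of them a member, had 49 below 0 for the combination against vehicle, with a median of -0.30. Limma called 1 of them, higher (0.397% of all genes were called higher). This was Apol9a, an apolipoprotein L gene with a near copy in Apol9b, between which reads may be split. It had 88.3, 68.4, 51.7 and 94.7 normalized counts in combination, 60.7, 53.3, 36.6 and 85.0 in alpelisib, 100.3, 57.4 and 45.2 in nintedanib responders, 40.8 and 52.0 in non-responders, and 19.3, 14.6, 27.6 and 39.7 in vehicle libraries. For the combination against vehicle Apol9a rose by 1.60 ± 0.33 (limma, adjusted p = 0.0344), a call that was lost in 11 alternatives (adjusted p up to 0.205). Ifitm1 and Ifitm2, which encode membrane proteins that block viral entry, differed by 1.74 ± 0.43 (adjusted p = 0.0598) and 1.25 ± 0.31 (adjusted p = 0.0638), and by DESeq2 both passed (adjusted p = 0.00374 and 0.00669). Human IFITM1 was also higher, with 5551 to 11832 human normalized counts in combination and 1966 to 4271 in vehicle libraries. Human IFITM2 had 1227 to 1882 and 341 to 706. The part of mismapped human reads in the mouse counts of these genes was not tested. For alpelisib against vehicle 44 of the 69 lay below 0 and 0 were called by limma. Apol9a there differed by 1.22 ± 0.33 (adjusted p = 0.256), Trim30a by -0.76 ± 0.24 (adjusted p = 0.292, and 0.0409 by DESeq2) and Sp100 by -0.51 ± 0.19 (adjusted p = 0.371). For nintedanib against vehicle 48 of the 69 lay above 0 and 0 were called. Apol9a differed by 1.21 ± 0.32 (adjusted p = 0.218), Ifitm2 by 0.90 ± 0.29 (adjusted p = 0.382) and Ifitm3 by 0.87 ± 0.29 (adjusted p = 0.407). Human IFITM3 had 6552 to 15406 human normalized counts in nintedanib and 4331 to 7323 in vehicle libraries, and its part in the mouse counts was not tested.

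Within that list, 12 guanylate-binding and immunity-related GTPases, relatives of Gbp2 and Gbp3, were tested. All 12 lay below 0 for the combination and for alpelisib, each against vehicle, with medians of -1.14 and -1.0, and 0 were called. For nintedanib 5 of 12 lay below 0 and the median was 0.05. Their summed normalized counts were 949 to 1431 in combination, 994 to 1640.4 in alpelisib, 1053 to 5772 in nintedanib and 1175 to 5831 in vehicle libraries. The high values were those of Vehicle 3 (5831), Nintedanib non-responder 2 (5772), Nintedanib responder 1 (4909) and Vehicle 4 (3561). Without Vehicle 3 the median was -0.72 for the combination, with 10 of 12 below 0, -0.50 for alpelisib, with 12 of 12, and 0.57 for nintedanib, with 1 of 12. Without the 4 libraries rich in ribosomal reads it was -0.65 for the combination, with 11 of 12 below 0, and -0.27 for alpelisib, with 11 of 12.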

How the data were processed

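RNA from 17 xenograft tumours was prepared with TruSeq RNA v2 and sequenced as 75-bp paired ends on a NextSeq500, per the labels' protocols. Reads were mapped separately to human and mouse, per the series text, with Bowtie and TopHat to hg19 and mm10, and DESeq2 is also named, per the submitters' processing notes; the sources used here do not give versions, strand or the counter. The deposited values are the authors' normalized counts, a signal made from gene counts divided by size factors. Whole reads were recovered from them: 100% of values came out whole within 0.001, and 0 other per-sample columns were present.

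Values were tested with limma-trend (limma 3.58.1, R 4.3.3) on log2(value + 1), with 1 mean per group, over genes whose mean was at least 10 (11831 mouse and 14533 human genes), and p-values were adjusted by Benjamini-Hochberg over all of them in each of 7 comparisons. Fold changes are on that scale and understate the change of low genes. The nintedanib mean weighted its 5 libraries equally. Alternatives were edgeR 4.0.16, limma-voom and DESeq2 1.42.0 on recovered reads, TMM scaling, other pseudocounts and filters, a fit of the compared libraries alone, each library left out, and a replicate block. The steps were tested on simulated data. Precision is limited by the number of libraries and by 2271764 to 7438823 mouse reads in each.

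Members and lists were chosen with earlier results of these data known. Values in each library are given for members past an adjusted p of 0.05, for the 3 members with the smallest p in each comparison, and for the highest member of each role; further members were chosen after their values were seen. From the other lists the text names genes past an adjusted p of 0.05 and the 3 with the smallest p against vehicle, of which 1 is not reported here. Among combination, alpelisib and vehicle libraries, those of different groups with the same number deviated together (correlation over 0.1) in 2 of 12 pairs. Those with different numbers did so in 14 of 36 pairs. The numbers were therefore not taken as pairs, without a check of the nintedanib libraries. Libraries of 1 group differed well beyond counting noise in all 22 pairs. A motif count in promoters was planned and not run.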

Additional observations from a re-analysis of the deposited data

Results flagged for a closer look

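In 9 of 140 sets of 4 or 5 libraries tested, the highest or lowest library stood far from the others of its group; chance gives about 1 in 20. Of these, 4 were in Vehicle 3, the library with the largest share of ribosomal reads. Vehicle 3 had 257 normalized counts of Ddx58 against 149 to 153 in the other vehicle libraries, and 386 of Ifih1 against 154 to 163. It also had 418 of Ifit2 against 237 to 249, and 273 of Samd9l against 98.4 to 109. Combination 2 had 408 of Irf1 against 252 to 266 in the other combination libraries, but 77.4 of Ddx58 against 142 to 154. Alpelisib 4 had 105 of Ifih1 against 151 to 160.4 in the other alpelisib libraries, and 258 of Parp14 against 340.1 to 356. Nintedanib non-responder 2 had 351 of Irf9 against 251 to 266 in the other nintedanib libraries.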

How the results depend on the processing

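The number of members called was 0 in every comparison under all alternatives but DESeq2, which called 2 lower for the combination against vehicle (Cmpk2 and Cxcl10) and 1 lower against nintedanib (Cxcl10); the cause was not tested. Over all genes DESeq2 called 481 for the combination, 113 for alpelisib and 93 for nintedanib against vehicle, 22 and 30 for the combination against alpelisib and nintedanib, and 2 between responders and non-responders, where limma called 92, 0, 18, 1, 0 and 0. With the replicate block the calls numbered 46 for the combination and 10 for nintedanib against vehicle, and 0 members. The members' median between responders and non-responders ran from -0.42 to 0.29 with 1 library left out, and Ifi35 from -0.90 to 0.12, above 0 without Nintedanib non-responder 2. The median kept its sign under every alternative for the combination against vehicle (-0.45 to -0.22), alpelisib (-0.35 to -0.13) and nintedanib (-0.56 to -0.33), for nintedanib against vehicle (0.09 to 0.26) and for the departure from additivity (-0.60 to -0.30). For alpelisib against vehicle it ran from -0.17 to 0.03. Leaving out the 4 libraries rich in ribosomal reads, and the GTPase medians without single libraries, were chosen after seeing the data. Low counts of Cmpk2 and Ifng limit what depth can show.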
